A study of Caenorhabditis elegans with 33 samples.

Results

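The response of the nematode *Caenorhabditis elegans* to chronic gamma radiation was compared between the third irradiated generation, F2, and the fourth, F3. The value followed for each gene was a difference of differences, the log2 change between exposed and control animals in F3 minus the same change in F2, so that a positive value means a more positive response in F3. It was formed from 12 of the 33 libraries of the series, 3 each of F2 control, F2 exposed, F3 control and F3 exposed, and 16916 genes were tested. The question the contrast asks is which classes of genes responded in opposite ways in consecutive irradiated generations.

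All animals were of the N2 background and were grown at 19 °C on plates with bacteria as food, from embryos synchronised by bleaching. Exposed animals received gamma radiation at 50 mGy per hour for 65 h, from the embryo to the young adult, in every generation up to the one collected, and control animals were never irradiated. The sample source is given as young adults and the stage characteristic as L4, so both names are used for the same animals. A further 6 libraries of F2 and F3 recovery animals, which descend from irradiated F0 animals and were themselves grown without radiation, served as a second reference.

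N2 adults are self-fertile hermaphrodites. Their germ line makes sperm first, during the last larval stage, and then switches to oocytes. Collagen genes of the cuticle and genes of the moult are transcribed in waves tied to each larval moult. Germ cells hold much of the DNA repair and replication machinery of the adult, and ionising radiation is known to raise *egl-1*, the BH3-only trigger of germ cell death, through the p53 homologue CEP-1.

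The libraries held 27.7 to 44.7 M counts. Replicates differed unevenly. F3 exposed replicates 2 and 3 differed by a chi-square of 10.1 per degree of freedom, whereas replicate 1 differed from them by 176 and 175. The 3 F2 controls differed from each other by 83.9 to 145, and the 3 F2 exposed libraries by 16 to 33.2. Ribosomal RNA took 6.03% to 24.3% of the counts, with the highest shares in F2 control replicate 1 and F3 exposed replicate 1. Markers of hypodermis, sperm, oocytes, intestine, muscle, pharynx and neurons were present in all 12 libraries, with *col-19* at 447 to 1180 CPM (counts scaled to a common library size), *msp-142* at 31.1 to 61.3 CPM, *cbd-1* at 1250 to 1740 CPM and *myo-3* at 109 to 152 CPM. The male neuron marker *pkd-2* was at 0.025 to 0.424 CPM. A further male marker, *mab-3*, was at 0.646 to 2.06 CPM. Its F2 groups overlapped, and in F3 it was at 0.646 to 0.901 CPM in controls and 1.38 to 2.06 CPM in exposed libraries. Over 14 male markers the median difference of differences was 0.43, with 10 positive and 4 negative. Although labelled biological replicates, the 3 libraries of a group are not tied to separate irradiations by any label, so a p-value here reflects spread among these libraries alone.

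No gene passed the test of the difference of differences in the 12 libraries. The quasi-likelihood F-test of edgeR with Benjamini-Hochberg adjustment called 0 of 16916 genes at an adjusted p under 0.05, or 0.00%, and the smallest adjusted p was 0.099. At an unadjusted p under 0.05 there were 1914 genes with a more positive and 1427 with a more negative response in F3, which is 11.3% and 8.44% of the genes tested. DESeq2 called 577 genes on the same libraries and limma's voom test with weights by group called 0. A fit over all 33 libraries estimates the spread from these 12 libraries together with the groups outside this contrast. It called 1598 of 17627 genes (9.07%), 952 of them higher (5.40%) and 646 lower (3.66%). Of these, 1587 were among the genes tested in the 12 libraries. Both fits estimate each gene's difference from the same 12 libraries, so the larger one changes the estimate of the spread and is no independent support for a direction. Calls from the 33 libraries are given below under that name, beside the values of the 12. They rested most on F2 control replicate 2: without it the 33 libraries gave 389 calls, and without F2 control replicate 3 they gave 2804.

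Within generations, 4 genes were called in F2 (0.0236%) and 136 in F3 (0.804%) by edgeR in the 12 libraries. No gene was called in both in opposite directions. In the fit of 33 libraries, which called 2.81% of genes higher and 6.20% lower in F2 and 2.87% and 2.37% in F3, 21 genes were called lower in F2 and higher in F3, 10 were called higher in F2 and lower in F3, 52 were called higher in both and 23 were called lower in both. Counting libraries only, 203 genes had all 3 exposed libraries below the 3 controls in F2 and above them in F3 (1.20%), and 205 had the reverse (1.21%). Another 242 genes lay above the controls in both generations (1.43%) and 136 lay below them in both (0.804%).

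**Figure D1:**
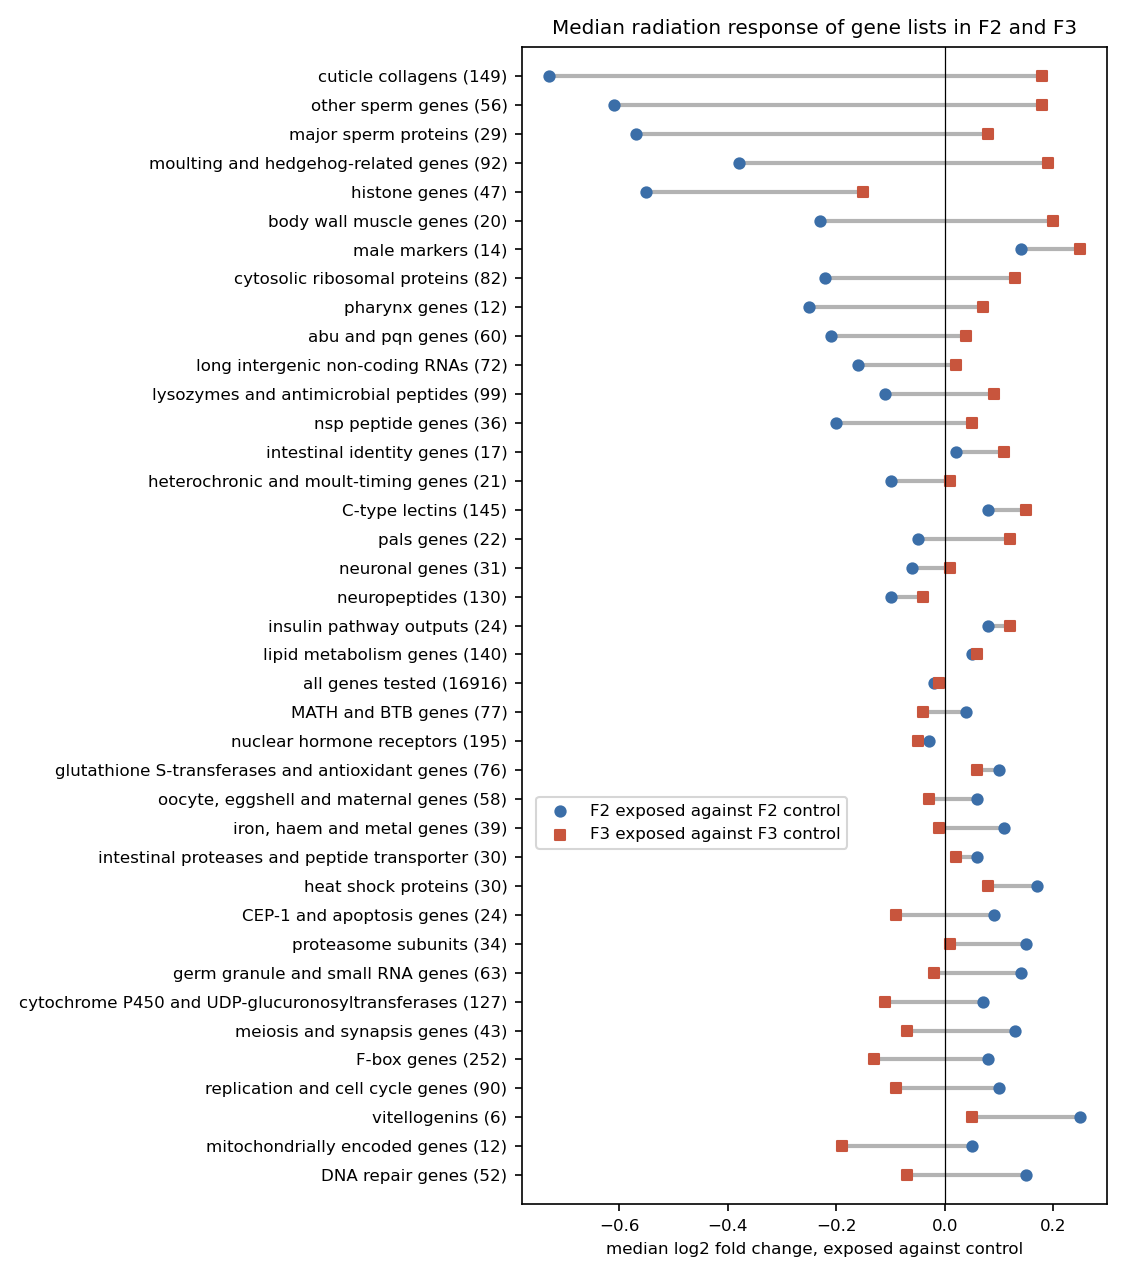
Median log2 fold change of exposed against control animals over the genes of 38 lists and over all genes tested (horizontal axis), in F2 (blue circles) and in F3 (red squares), with the number of genes tested in parentheses. Lists are ordered by their median difference of differences; the median of the cuticle collagens was -0.73 in F2 and 0.18 in F3, whereas that of the DNA repair genes was 0.15 and -0.07.

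Cuticle collagens, which form the exoskeleton that each moult renews, had the lowest median response of the 38 lists in F2 and a small positive median in F3. The median log2 change over the 149 collagens tested, of 175 in the list, was -0.73 in F2 and 0.18 in F3, and the median difference of differences was 0.78 against 0.02 over all genes. The mean log2(CPM + 1) of the list was 4.78, 4.97 and 4.35 in the F2 controls and 4.07, 4.27 and 4.16 in F2 exposed libraries. It was 4.06, 3.62 and 3.72 in the F3 controls and 4.26, 3.72 and 3.95 in F3 exposed libraries. The F2 groups did not overlap, whereas those of F3 did. In F2, 75 of the 149 genes had all exposed libraries below the controls, beside 16.8% of all genes, and 3 had them above. In F3, 17 had them above, beside 9.09% of all genes, and 3 had them below. In the difference of differences, 52 collagens were higher and 3 lower at an unadjusted p under 0.05, beside 11.3% and 8.44% of all genes. In the 33 libraries 35 were called higher and 0 lower, beside 5.40% and 3.66% of all genes.

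Between F2 and F3 collagens moved more in the controls than in exposed animals. From F2 to F3 the controls fell in 80 of 149 collagens by edgeR's test in the 12 libraries, beside 9.45% of all genes, with a list median of -1.13. The exposed libraries fell in 6 collagens and rose in 3, beside 1.79% and 0.816% of all genes, with a median of -0.27. *col-110* (chromosome IV, 4608201 to 4609668, minus strand) was at 14.8, 11.1 and 11.1 CPM in the F2 controls, 6.42, 6.59 and 4.67 CPM in F2 exposed, 4.81, 2.65 and 3.54 CPM in the F3 controls and 7.7, 4.78 and 4.87 CPM in F3 exposed libraries. Exposed libraries lay below the controls in F2, and in F3 exposed replicate 2 lay within the range of the controls. Its difference of differences was 1.73 (95% interval 0.99 to 2.46), with an edgeR adjusted p of 0.1 in the 12 libraries and of 0.0037 in the 33.

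The collagens *bli-2* and *dpy-8*, named for the blistered and dumpy bodies of their mutants, showed the same order of groups. *bli-2* was at 40.3, 35.6 and 22.9 CPM in the F2 controls and 15.1, 23.8 and 11.7 CPM in F2 exposed libraries. In F3 it was at 6.57, 3.05 and 7.37 CPM in the controls and 19.2, 9.72 and 10.5 CPM in exposed libraries. The F2 groups of *bli-2* overlapped in 1 library, the F3 groups did not overlap, and its difference of differences was 2.18 (0.94 to 3.42; edgeR adjusted p 0.13 in 12 libraries and 0.0077 in 33). That of *dpy-8* was 3.11 (1.34 to 4.88; edgeR adjusted p 0.13 and 0.016), and *dpy-8* lost its call in the 33 libraries without F2 control replicate 2 or F3 exposed replicate 1. *col-41* was the only one of the 149 collagens called in F3 in the 12 libraries, which is close to the 0.804% of all genes. It was at 0.215, 0.225 and 0.0498 CPM in the F3 controls against 1.24, 0.9 and 1.17 CPM in exposed libraries. In the 6 F2 libraries it was at 0.509 to 1.76 CPM. Its log2 change was -0.24 in F2 and 2.77 in F3 (edgeR adjusted p 0.78 and 0.026), and the F3 call was lost without F3 exposed replicate 2 or 3 or F3 control replicate 1 or 3. Without F3 exposed replicate 1, the library that stood apart in its group, the median difference of differences of the collagen list was 0.64. Collagens share repeats, so reads may have been split between near-identical members.

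Genes of the moult and the hedgehog-related families that accompany it had medians of the same signs as the collagens. Over 92 such genes the median log2 change was -0.38 in F2 and 0.19 in F3, and the median difference of differences was 0.55. At an unadjusted p under 0.05, 26 were higher and 0 lower, beside 11.3% and 8.44% of all genes. In the 33 libraries 13 were called higher and 0 lower, beside 5.40% and 3.66% of all genes. Without F3 exposed replicate 1 the median was 0.37. *grl-7*, a ground-like hedgehog-related gene, was at 14.6, 10.9 and 6.22 CPM in the F2 controls, 5.04, 4.55 and 4.35 CPM in F2 exposed, 2.87, 1.08 and 2.04 CPM in the F3 controls and 5.72, 2.79 and 2.94 CPM in F3 exposed libraries. The exposed libraries lay below the controls in F2, and in F3 exposed replicate 2 lay within the range of the controls. The difference of differences was 2.13 for *grl-7* (0.93 to 3.33), 2.46 for the lipocalin-related gene *lpr-4* (1.11 to 3.82) and 1.90 for the warthog gene *wrt-1* (0.63 to 3.17). Their edgeR adjusted p was 0.13, 0.13 and 0.14 in the 12 libraries and 0.01, 0.01 and 0.022 in the 33.

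Over 21 genes that set larval timing the medians were -0.1 in F2 and 0.01 in F3. The median difference of differences was 0.13, with 13 genes positive and 8 negative. At an unadjusted p under 0.05, 6 were higher and 1 lower, beside 11.3% and 8.44% of all genes. In the 33 libraries 4 were called higher, beside 5.40% of all genes. *lin-42* (WBcel235 chromosome II, 1233236 to 1252359, minus strand), the homologue of the circadian gene period, which paces the moults, was at 31.7, 30.6 and 25.5 CPM in the F2 controls and 15.3, 21.7 and 14.5 CPM in F2 exposed libraries. In F3 it was at 11.2, 9.09 and 10 CPM in the controls and 13.9, 12.5 and 13.6 CPM in exposed libraries. Neither generation's groups overlapped, and the direction was opposite. Its log2 change was -0.77 in F2 and 0.40 in F3, and the difference of differences was 1.17 (0.70 to 1.63; edgeR adjusted p 0.1 in 12 libraries and 0.0032 in 33). With recovery animals in place of controls the difference for *lin-42* was -0.38. *blmp-1*, a zinc-finger regulator of developmental timing, had a smaller value of 0.67 (0.34 to 1.00; edgeR adjusted p 0.1 and 0.0075), with 9.7, 10.6 and 11.1 CPM against 8.94, 9.84 and 9.22 CPM in F2, which overlapped, and 5.17, 5.53 and 5.18 CPM against 7.59, 7.54 and 7.32 CPM in F3, which did not.

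**Figure D2:**
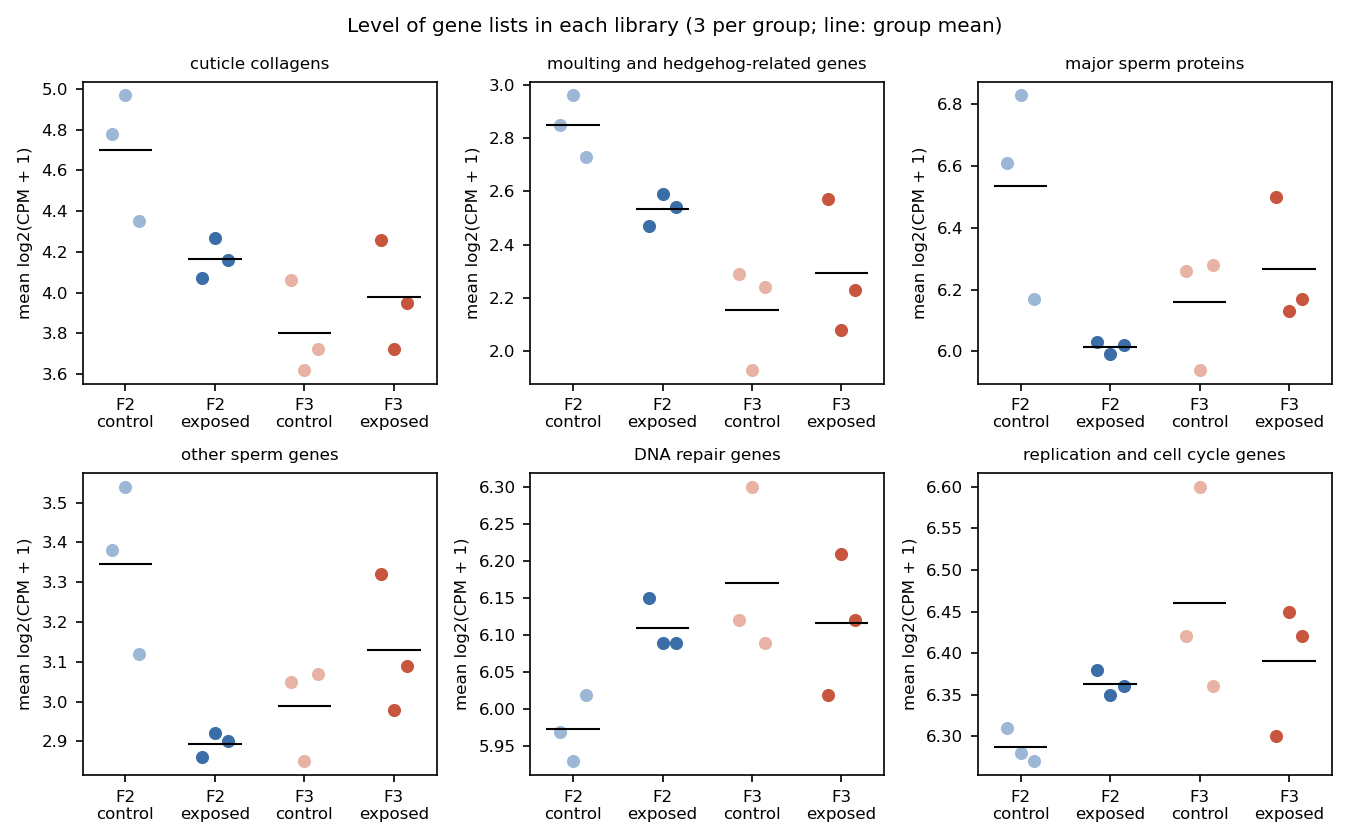
Mean log2(CPM + 1) of 6 gene lists (vertical axes, not starting at 0) in each of the 12 libraries, with the 3 replicates of a group from left to right and a line at the group mean. The mean of the F2 controls is the highest for collagens, moulting genes and sperm genes and the lowest for repair and replication genes, while the F3 groups overlap in all 6 lists.

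Sperm genes also had a negative median response in F2 and a small positive one in F3. The major sperm proteins, which form the cytoskeleton of crawling sperm and signal to oocytes, had a median log2 change of -0.57 in F2 and 0.08 in F3 over 29 genes. All 29 had a positive difference of differences, from 0.46 to 1.96. Of these, 27 reached an unadjusted p under 0.05, beside 11.3% of all genes, and 21 were called higher in the 33 libraries, beside 5.40%. The mean log2(CPM + 1) of the list was 6.61, 6.83 and 6.17 in the F2 controls and 6.03, 5.99 and 6.02 in F2 exposed libraries, which did not overlap. It was 6.26, 5.94 and 6.28 in the F3 controls and 6.5, 6.13 and 6.17 in F3 exposed libraries, which did. Without F3 exposed replicate 1 the median difference of differences was 0.51 for this list and 0.64 for the other sperm genes. The major sperm protein genes are nearly identical in sequence and share reads, so their values are not independent of each other.

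Over 56 other sperm genes the medians were -0.61 in F2 and 0.18 in F3. Of these, 38 were higher and 0 lower at an unadjusted p under 0.05, beside 11.3% and 8.44% of all genes. In the 33 libraries 26 were called higher and 0 lower, beside 5.40% and 3.66% of all genes. In F2, 36 had all exposed libraries below the controls, beside 16.8% of all genes, and 0 above. *spe-18* (chromosome II, 13151459 to 13153399, minus strand), which is needed to assemble sperm fibrous bodies, was at 19, 21.1 and 10.2 CPM in the F2 controls, 8, 8.56 and 7.9 CPM in F2 exposed, 10, 9.16 and 7.1 CPM in the F3 controls and 13.5, 12.7 and 12.7 CPM in F3 exposed libraries. Exposed libraries lay below the controls in F2 and above them in F3. The difference of differences was 1.60 (0.94 to 2.26; edgeR adjusted p 0.1 in 12 libraries and 0.0034 in 33). In whole animals, fewer cells of a type and less RNA per cell cannot be told apart.

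Other sperm genes showed the F2 side more than the F3 side. *msp-36* was at 202, 216 and 154 CPM in the F2 controls and 143, 131 and 130.0 CPM in F2 exposed libraries, and at 165, 124 and 144 CPM against 188, 164 and 147 CPM in F3. The groups were apart in F2 and overlapped in F3, and the difference of differences was 0.71 (0.30 to 1.11; edgeR adjusted p 0.13 and 0.0082). *gsp-3*, a sperm protein phosphatase, fitted a log2 change of -0.72 in F2 and 0.29 in F3. *spe-8*, a kinase of sperm activation, fitted -0.84 and 0.49. From F2 to F3 the median change of the other sperm genes was -0.50 in controls and 0.22 in exposed animals, and that of the major sperm proteins was -0.39 and 0.28. So, unlike collagens, for which both treatments had negative medians, the sperm lists had medians of opposite sign. Few genes were called, by edgeR in the 12 libraries. Controls fell in 2 of 29 major sperm proteins and 11 of 56 other sperm genes, beside 9.45% of all genes. Exposed animals rose in 0 and 2, beside 0.816%. F3 exposed libraries had list means of 6.5, 6.13 and 6.17 for major sperm proteins and 3.32, 2.98 and 3.09 for other sperm genes, highest in replicate 1, which stood apart.

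**Figure D3:**
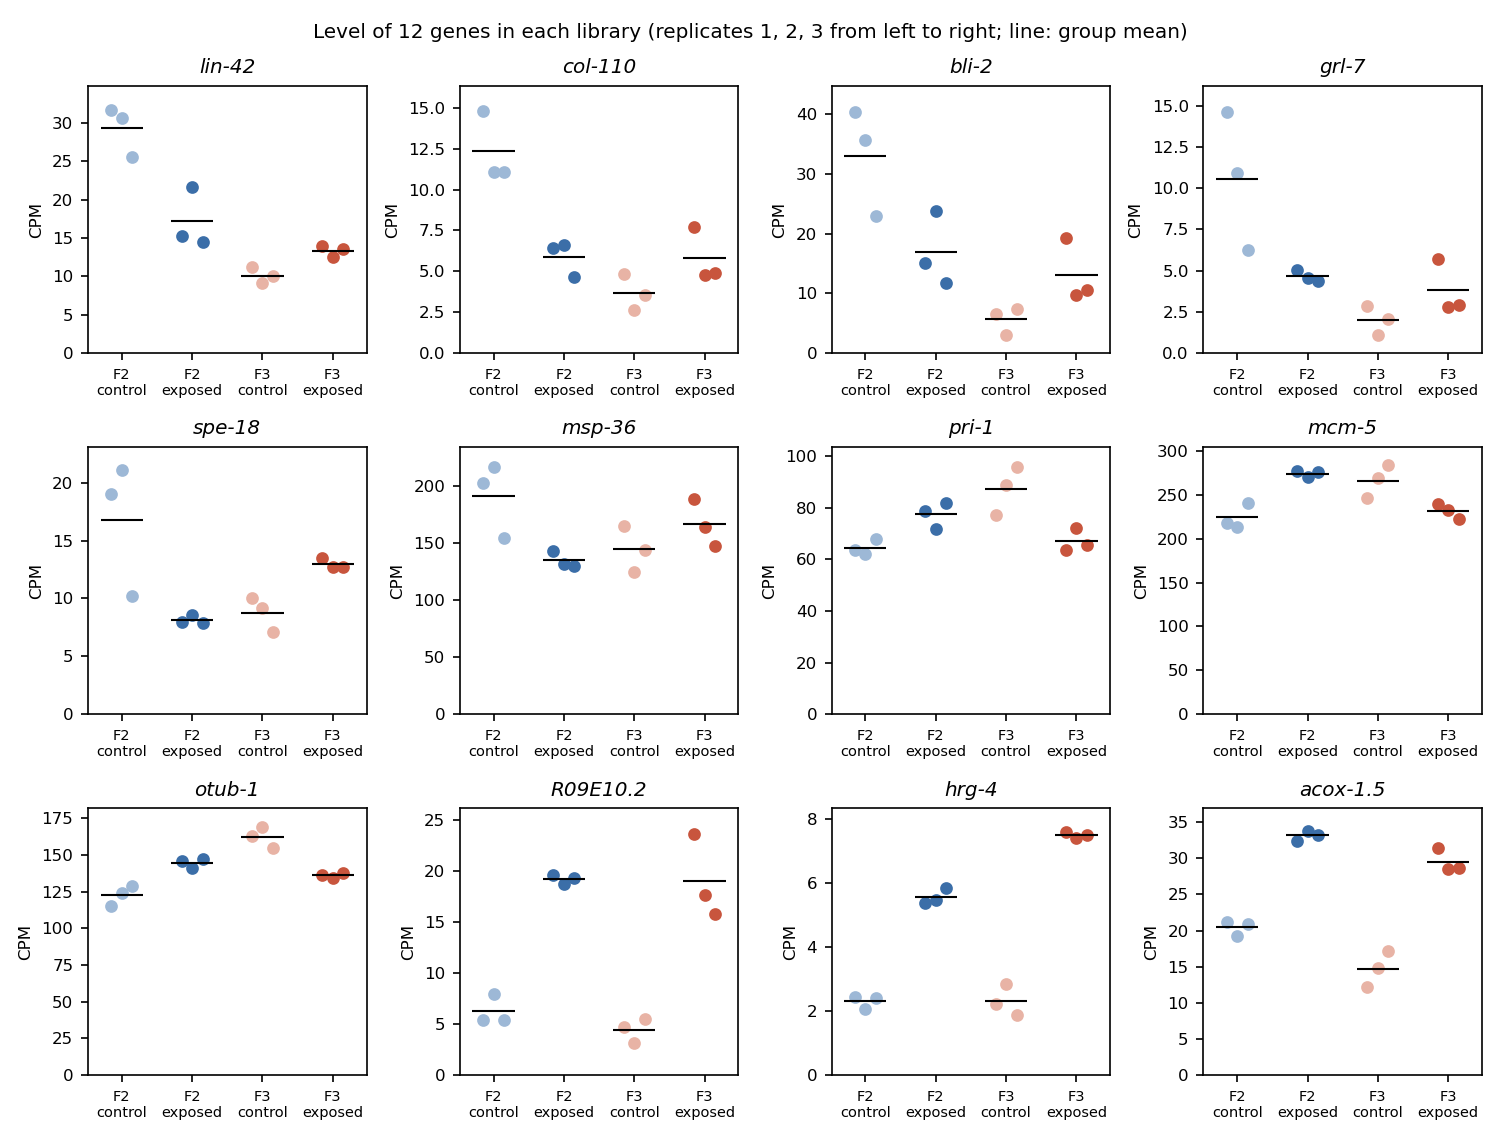
Levels of 12 genes in CPM (vertical axes from 0) in each library of the 4 groups, with replicates from left to right and a line at the group mean. In *lin-42* and *spe-18* exposed libraries lie below controls in F2 and above them in F3, in *otub-1* the order is the reverse, and in *R09E10.2*, *hrg-4* and *acox-1.5* exposed libraries lie above controls in both.

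DNA repair, replication and other germ line genes had the opposite pattern, with small positive responses in F2. Over 52 DNA repair genes the median log2 change was 0.15 in F2 and -0.07 in F3, and the median difference of differences was -0.24. In F2, 24 of the 52 had all exposed libraries above the controls, beside 14.4% of all genes, and in F3, 5 had them below, beside 7.26% of all genes, and 0 above. At an unadjusted p under 0.05, 19 were lower and 0 higher in the difference of differences, beside 8.44% and 11.3% of all genes. In the 33 libraries 13 were called lower and 0 higher, beside 3.66% and 5.40% of all genes. Over 90 replication and cell cycle genes the medians were 0.10 in F2 and -0.09 in F3. Beside the same shares, 25 were lower and 0 higher at an unadjusted p under 0.05 and 16 were called lower in the 33 libraries. Without F3 exposed replicate 1 the median difference of differences was -0.19 for repair and -0.17 for replication genes.

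*pri-1* (chromosome III, 9612254 to 9614281, minus strand), the small subunit of DNA primase, was at 63.8, 62 and 67.9 CPM in the F2 controls, 78.8, 71.8 and 81.8 CPM in F2 exposed, 77.2, 88.8 and 96.1 CPM in the F3 controls and 63.7, 72.1 and 65.7 CPM in F3 exposed libraries. Exposed libraries lay above the controls in F2 and below them in F3. The difference of differences was -0.64 (-0.92 to -0.37; edgeR adjusted p 0.1 in 12 libraries and 0.0032 in 33). *mcm-5*, a subunit of the replicative helicase, was at 218, 214 and 241 CPM in the F2 controls against 277, 270.0 and 276 CPM in exposed libraries, and at 246, 269 and 284 CPM against 240.0, 233 and 223 CPM in F3. It too was apart in both generations in opposite directions, with a value of -0.49 (-0.73 to -0.25; edgeR adjusted p 0.1 and 0.0034). The replication licensing factor *cdc-6* had a value of -0.52 (-0.77 to -0.26).

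No repair gene was called within F2 or within F3 in the 12 libraries, which is near the background of 0.0236% and 0.804% of all genes. The list's medians were 0.15 in F2 and -0.07 in F3. *msh-2*, of mismatch repair, was at 87.2, 87.9 and 98.7 CPM in the F2 controls and 116, 109 and 111 CPM in F2 exposed libraries, which were apart, and at 101, 118 and 102 CPM against 92.5, 104 and 100 CPM in F3, which overlapped. Its difference of differences was -0.40 (-0.65 to -0.16; edgeR adjusted p 0.13 and 0.012). The endonuclease gene *xpf-1* had -0.43 (-0.72 to -0.14) and *smc-5*, of the SMC5/6 complex, -0.36 (-0.61 to -0.12). From F2 to F3 the controls rose in 9 of 52 repair genes and in 18 of 90 replication genes, beside 6.28% of all genes. They fell in 0 of either list, beside 9.45% of all genes. Exposed animals changed in 0 of either list, which is near the background, since only 2.61% of all genes were called there.

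Germ granule, meiosis, oocyte and proteasome genes had median differences of differences closer to 0 than those of the repair and replication genes. Over 63 germ granule and small RNA genes the median log2 change was 0.14 in F2 and -0.02 in F3. In the difference of differences 14 were lower and 1 higher at an unadjusted p under 0.05, and 8 were called lower in the 33 libraries. Over all genes, 8.44% were lower and 11.3% higher at that threshold, and 3.66% were called lower. *ego-1*, an RNA-dependent RNA polymerase of the germ line, had a value of -0.40 (-0.65 to -0.16), *nrde-1*, of nuclear RNA interference, -0.38 (-0.62 to -0.14), and the endoribonuclease gene *rde-8* -0.47 (-0.78 to -0.16). Of 43 meiosis genes, 42 had a negative difference, with a median of -0.19, 7 lower at an unadjusted p under 0.05 and 2 called lower in the 33 libraries, which is close to the 3.66% of all genes. These 2 were *scc-3*, of cohesin, at -0.33, and *htp-3*, of the meiotic chromosome axis, at -0.31. Over 58 oocyte and eggshell genes the median was -0.09, with 3 higher and 9 lower at an unadjusted p under 0.05. Genes of 34 proteasome subunits had a median of 0.15 in F2 and 0.01 in F3, with 12 lower and 0 higher at that threshold and 8 called lower in the 33 libraries. *rpt-4*, an ATPase of the regulatory particle, was at 223, 221 and 225 CPM against 264, 261 and 247 CPM in F2 and at 270.0, 283 and 278 CPM against 260.0, 267 and 258 CPM in F3, apart in both generations in opposite directions, with a difference of differences of -0.29 (-0.49 to -0.09).

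**Figure D4:**
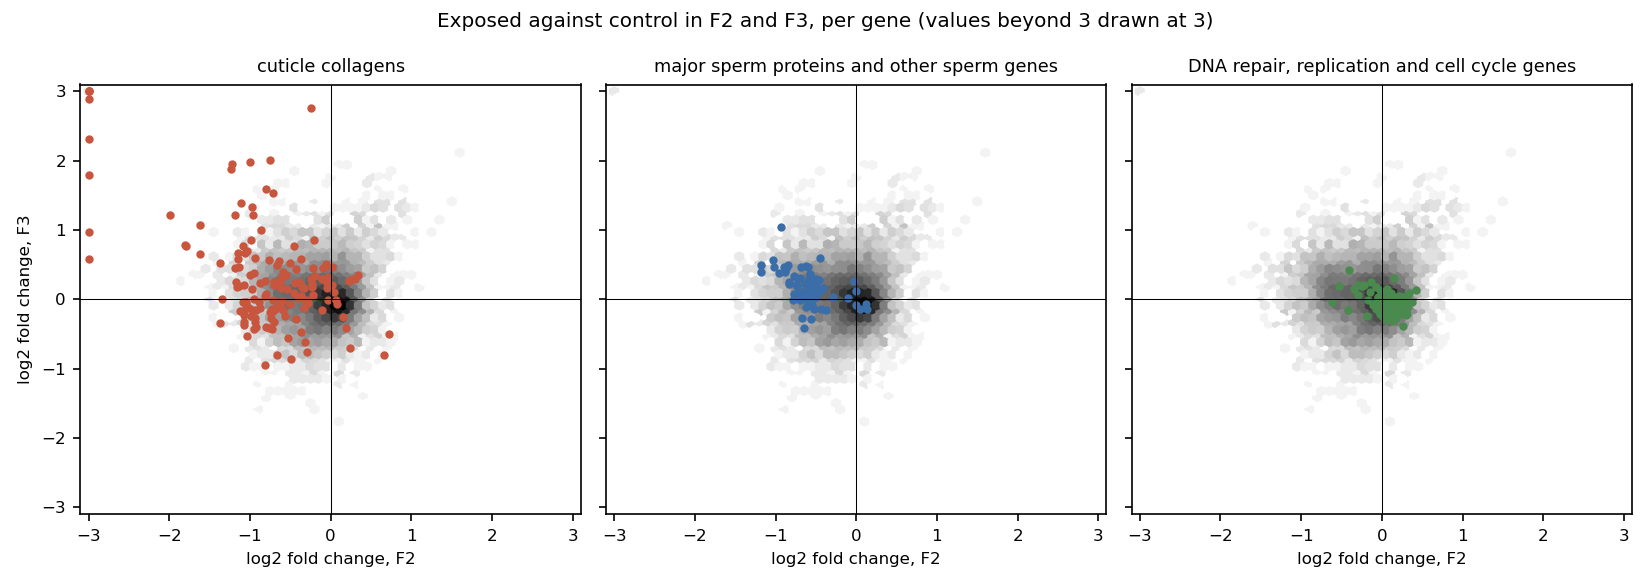
Log2 fold change of exposed against control animals in F2 (horizontal) and F3 (vertical) for all genes tested (grey, darker where more genes fall) and for collagens, sperm genes, and DNA repair, replication and cell cycle genes (coloured points), with values beyond 3 drawn at 3. Collagens and sperm genes lie mostly left of 0 in F2 and spread around 0 in F3, and repair and replication genes cluster just right of 0 in F2 and just below 0 in F3.

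Across all genes, the 5 of smallest p in each direction, none of which passed the test in 12 libraries, included members of these classes and others. With positive differences these were *nsph-4.2* at 1.24, *lin-42* at 1.17, the contactin gene *rig-6* at 0.67, *spe-18* at 1.60 and the ceramide glucosyltransferase gene *cgt-2* at 1.03. With negative differences they were the deubiquitinase gene *otub-1* at -0.49, *pri-1* at -0.64, *epg-2*, of P granule autophagy, at -0.63, *hpo-11* at -0.57 and the F-box gene *fbxc-51* at -0.76. Each had an edgeR adjusted p of 0.1, and all but *hpo-11*, with 0.088, were called in the 33 libraries. *otub-1* (chromosome V, 15066298 to 15067352, plus strand) was at 115, 124 and 129 CPM in the F2 controls, 146, 141 and 147 CPM in F2 exposed, 163, 169 and 155 CPM in the F3 controls and 136, 134 and 138 CPM in F3 exposed libraries. Its groups were apart in both generations, with a log2 change of 0.24 in F2 and -0.26 in F3. *rig-6* was at 45.1, 43.5 and 49.7 CPM against 37.4, 39.7 and 39.8 CPM in F2 and at 31.8, 31 and 35.3 CPM against 43.6, 47.1 and 41.3 CPM in F3, where it was called (log2 0.43, edgeR adjusted p 0.044), a call kept in 2 of the 12 fits with 1 library left out.

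The 4 genes called within F2 by edgeR in the 12 libraries changed in the same direction in F3. This does not extend to F2 calls of other fits. The fit of 33 libraries called 1587 genes in F2, of which 21 and 10 were called in the opposite direction in F3 and 52 and 23 in the same. *R09E10.2* (chromosome IV, 10317563 to 10318299, minus strand) was at 5.43, 7.99 and 5.36 CPM in the F2 controls, 19.6, 18.8 and 19.3 CPM in F2 exposed, 4.7, 3.13 and 5.48 CPM in the F3 controls and 23.7, 17.7 and 15.8 CPM in F3 exposed libraries. Exposed libraries lay above the controls in both generations, 3.07-fold in F2 and 4.3-fold in F3 (edgeR adjusted p 0.03 and 0.0021). The difference of differences was 0.49 (-0.16 to 1.13). *hrg-4*, a haem transporter gene, rose 2.4-fold in F2 and 3.23-fold in F3 (edgeR adjusted p 0.03 and 0.0012), from 2.45, 2.07 and 2.42 CPM to 5.37, 5.47 and 5.84 CPM and from 2.22, 2.85 and 1.87 CPM to 7.59, 7.42 and 7.5 CPM. *pmp-1*, a peroxisomal membrane transporter gene, rose 1.55-fold and 1.71-fold (edgeR adjusted p 0.039 and 0.0027). The ferritin gene *ftn-1* fell in both, with log2 changes of -1.89 and -1.43 (edgeR adjusted p 0.039 and 0.026), from 5.11, 3.93 and 5.19 CPM to 1.38, 1.17 and 1.29 CPM in F2 and from 7.86, 3.5 and 5.63 CPM to 2.54, 2.11 and 1.59 CPM in F3. These 4 were all the genes called in F2 by edgeR in the 12 libraries. Their F2 calls were lost when certain single libraries were left out (kept in 6 of 12 such fits for *R09E10.2*, 5 for *hrg-4*, 5 for *pmp-1* and 4 for *ftn-1*). In F3 the calls of the first 3 were kept in all 12 fits and that of *ftn-1* in 8. The intervals of their differences of differences all included 0: -0.06 to 0.91 for *hrg-4*, -0.14 to 0.42 for *pmp-1* and -0.36 to 1.27 for *ftn-1*.

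Other radiation-linked genes had the same order of groups in both generations. *acox-1.5*, a peroxisomal acyl-CoA oxidase gene, was at 21.2, 19.2 and 20.9 CPM against 32.4, 33.8 and 33.3 CPM in F2 (edgeR adjusted p 0.08) and rose from 12.2, 14.8 and 17.2 CPM to 31.4, 28.5 and 28.6 CPM in F3 (edgeR adjusted p 0.0026). The inducible chaperone gene *hsp-70* was at 37, 40.8 and 52.1 CPM against 129, 124 and 122 CPM in F2 and at 50.2, 46.9 and 102 CPM against 318, 140.0 and 162 CPM in F3, apart in both but called in neither (edgeR adjusted p 0.11 and 0.072). *egl-1* was at 0.765, 0.968 and 0.972 CPM against 2.27, 1.66 and 2.03 CPM in F2 and at 1, 1.18 and 0.423 CPM against 2.15, 1.74 and 2.52 CPM in F3, apart in both and called in neither (edgeR adjusted p 0.11 and 0.066). The difference of differences was 0.30 (-0.05 to 0.65) for *acox-1.5*, 0.11 (-0.98 to 1.21) for *hsp-70* and 0.19 (-0.73 to 1.11) for *egl-1*. *cep-1* had -0.29 (-0.65 to 0.07), with F2 groups that overlapped. *ced-13*, another BH3-only gene, had 0 to 4 reads in each of the 12 libraries and was not tested.

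Genes called in F3 mostly had the same sign in F2. Of 113 genes that rose in F3 (0.668%), 85 were fitted higher in F2 too, and the medians over all 113 were 0.20 in F2 and 0.97 in F3. Of the 113, 47 had all 3 exposed libraries above the controls in F2, beside 14.4% of all genes, and 7 had all 3 below, beside 16.8%. Over all genes tested, the F2 and F3 changes had opposite signs in 57.5%. Of 23 genes that fell in F3 (0.136%), 21 were fitted lower in F2. The fit of 33 libraries called the difference of differences in 56 of these 136 genes, 51 of them higher and 5 lower. Over those 51 the medians were -0.01 in F2 and 1.01 in F3. The 51 were chosen by calls of these same changes, so the gap between their medians was set by the choice. Among the 51 was the nuclear receptor gene *nhr-31*, at 16.3, 17.6 and 16.5 CPM against 18.6, 17.1 and 18 CPM in F2, which overlapped, and at 11.8, 14.9 and 14.8 CPM against 24, 22.9 and 24.9 CPM in F3, which did not. Its difference of differences was 0.70 (0.37 to 1.02; edgeR adjusted p 0.1 in 12 libraries and 0.013 in 33), and that of *nhr-76* was 1.12 (0.63 to 1.61; edgeR adjusted p 0.1 and 0.0032). *linc-142*, a long non-coding RNA, had 1.93 (0.51 to 3.35) and lost its call in 33 libraries when any of 4 libraries was left out. Its log2 change was 0.87 in F2 and 2.81 in F3 (edgeR adjusted p 0.33 and 0.022). Lipid metabolism genes had 6 of 140 called higher and 0 lower in F3. These were *acox-1.5*, *acox-1.1*, *acs-14*, *dhs-7*, *dhs-20* and *ech-9*, for none of which the difference of differences was called in the 33 libraries. As a whole that list had 4 called higher and 4 lower there, beside 5.40% and 3.66% of all genes, with medians of 0.05 in F2 and 0.06 in F3.

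Of 30 heat shock protein genes, 12 had all exposed libraries above the controls in F2 and 8 in F3, beside 14.4% and 9.09% of all genes, and 5 had them above in both. None of the 30 was called in F2 or in F3 in the 12 libraries, which is near the background of 0.0236% and 0.804% of all genes. For the difference of differences, 1 was called higher and 4 lower in the 33, beside 5.40% and 3.66% of all genes. The cytosolic chaperone gene *hsp-90* was at 1860, 1810 and 1850 CPM against 2450, 2450 and 2290 CPM in F2, which were apart, and at 2290, 2290 and 2200 CPM against 2440, 2210 and 2050 CPM in F3, which overlapped, with a difference of -0.40 (-0.69 to -0.11; edgeR adjusted p 0.16 and 0.022). The mitochondrial chaperone gene *hsp-60* had a positive difference of 0.56 (0.22 to 0.90; edgeR adjusted p 0.13 and 0.029) and *hsp-4*, of the endoplasmic reticulum, a negative difference of -0.44 (-0.71 to -0.18; edgeR adjusted p 0.13 and 0.014). Body wall muscle genes had a median of -0.23 in F2 and 0.20 in F3 over 20 genes, 19 of them with a positive difference. At an unadjusted p under 0.05, 7 were higher, beside 11.3% of all genes, and 3 were called higher in the 33 libraries, beside 5.40%. *tni-1*, a troponin I gene, was among them, at 62, 61.9 and 56 CPM against 43.2, 43.7 and 44.3 CPM in F2, which were apart, and at 47.3, 40.5 and 49.9 CPM against 51.5, 41.9 and 48.5 CPM in F3, which overlapped.

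The cytosolic ribosomal proteins and the histones shifted in median but rarely gene by gene. Over 82 ribosomal protein genes the medians were -0.22 in F2 and 0.13 in F3, with 1 higher and 0 lower at an unadjusted p under 0.05. Their mean log2(CPM + 1) was 9.75, 9.71 and 8.76 in the F2 controls, the last of which was below all other 11 libraries. Without that library the list's median difference of differences was 0.62, and without F2 control replicate 1 it was 0.17, against 0.36 with all. Over 47 histone genes the median difference was 0.46, with 1 higher and 1 lower, and it was -0.04 without F2 control replicate 1. F-box genes, which encode substrate adaptors of ubiquitin ligases, had a median of 0.08 in F2 and -0.13 in F3 over 252 genes, with 11 higher and 29 lower at an unadjusted p under 0.05 and 2 called higher and 10 lower in the 33 libraries. Over all genes, 11.3% were higher and 8.44% lower at that threshold, and 5.40% were called higher in the 33 libraries. Beside the 3.66% of all genes called lower in the 33 libraries, 10 of 252 F-box genes is close to the background. Many are close paralogues that share reads.

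**Figure D5:**
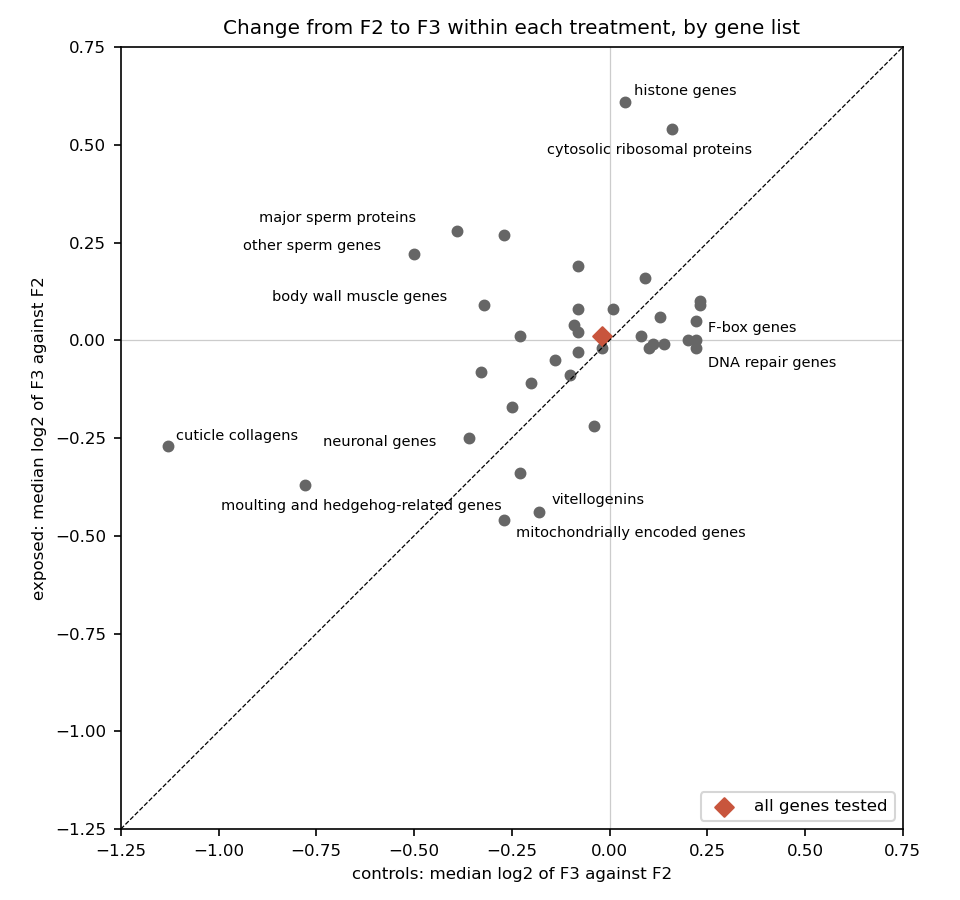
Median log2 change from F2 to F3 in control animals (horizontal) and in exposed animals (vertical) for 38 gene lists (grey) and all genes tested (red diamond), with a dashed line where both are equal. Collagens and moulting genes lie far to the left, at -1.13 and -0.78 in controls, against -0.27 and -0.37 in exposed animals.

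The difference of differences equals the change of the exposed animals from F2 to F3 minus that of the controls. Which of these changes gave more calls depended on the test. From F2 to F3 the controls changed in 2662 genes (15.7%), 1063 higher and 1599 lower, and exposed animals in 441 (2.61%), 138 higher and 303 lower, by edgeR in the 12 libraries. The numbers were not tested against each other, and without F2 control replicate 2 the controls gave 436 calls. The controls also gave more calls with DESeq2, at 3467 against 1217 in exposed animals, and with 33 libraries, at 5148 against 2110. With voom the order was the reverse, at 1087 calls in controls and 1503 in exposed animals. With the cuticle score, the mean log2 CPM of the collagen list in a library, as a covariate, the controls gave 0 calls and exposed animals 772. That score was 4.34, 4.75 and 3.97 in the F2 controls, 3.54, 3.78 and 3.62 in F2 exposed, 3.50, 3.07 and 3.13 in the F3 controls and 3.99, 3.23 and 3.54 in F3 exposed libraries. With it in the fit, the median difference of differences of the collagens was -0.13, which follows from how the score is made. That of the moulting genes was -0.11, that of the major sperm proteins -0.01, that of other sperm genes 0.17, that of DNA repair genes 0.01 and that of replication genes -0.04. The score differs between the groups compared, so its part and that of radiation cannot be told apart.

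With recovery animals as the reference in place of controls, the F3 and F2 responses differed in 75 of 17048 genes, all 75 higher (0.440%), by edgeR in 12 libraries that share the 6 exposed ones. A fit over 33 libraries called 1 gene for the same contrast. These 6 list medians kept their sign and were smaller: 0.35 for collagens, 0.10 for moulting genes, 0.39 for major sperm proteins, 0.38 for other sperm genes, -0.15 for DNA repair genes and -0.10 for replication genes. Histones and ribosomal proteins, at 0.72 and 0.55, were larger. Both references share the exposed libraries, so these values are not a second measurement of them.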

How the data were processed

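Whole-animal RNA was sequenced as strand-specific paired-end libraries, per the labels' protocols. STAR and DESeq2 1.22.2 were used per the submitters' processing notes; which counter, build or strand option was used is not given in the sources used here, so overlapping and antisense genes cannot be told apart. The deposited values are the authors' raw gene counts, whole numbers for 46778 identifiers, of which 46603 were found in the WBcel235 annotation used for names and positions.

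Counts of the 12 libraries were tested with edgeR 4.0.16 in R 4.3.3 (TMM scaling, filterByExpr, robust quasi-likelihood F-test, 1 coefficient per group, 8 residual degrees of freedom, common biological coefficient of variation 0.149). Benjamini-Hochberg adjustment ran over all 16916 genes kept, with calls at an adjusted p under 0.05. Up to 0.0392% of a library's counts lay in genes not tested. Depths of 27.7 to 44.7 M counts per library limit precision for genes near 1 CPM. Standard errors were calculated back from the F statistic, and 95% intervals for the difference of differences from them; both are approximate. CPM uses the TMM factors and is not per length, so levels are compared between samples and not between genes.

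Alternatives were limma 3.58.1 with voom and weights by group, DESeq2 1.42.0, other scaling, no filter, a replicate block, covariates, larger fits of 18 or 33 libraries (22 residual degrees of freedom for 33), and each library left out. The 38 gene lists, matched by symbol, the contrast and the tests were chosen with earlier results of these data known, and lists are described by counts and medians with no set test. The rule for named genes ranked those with a symbol of letters and a number and a mean of at least 1 CPM in at least 1 group. Of these it took the genes of smallest p in each direction (5 each, since none was called). *egl-1*, *ced-13*, *cep-1*, *R09E10.2*, *acox-1.5* and *hsp-70* were always named. All other genes were named after their values were seen, from those called in the 33 libraries or within a generation. Scripts were tested on simulated counts. Replicate numbers did not pair the libraries: of 18 same-numbered pairs, 4 had a correlation of deviations over 0.1 (range -0.222 to 0.379).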

Additional observations from a re-analysis of the deposited data

Results flagged for a closer look

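Genes are listed here because all 3 exposed libraries lay on one side of the 3 controls in F2 and on the other side in F3. Only genes already picked for naming are listed, not all of the 203 and 205 genes with such libraries. The genes listed were picked by small p or after their values were seen. The opposite directions were not tested as such, and the difference of differences reached no adjusted p under 0.05 by edgeR in the 12 libraries. Over all genes, 1.20% were below in F2 and above in F3 and 1.21% the reverse. Exposed animals were lower in F2 and higher in F3 for *nsph-4.2* (log2 difference of differences 1.24), *lin-42* (1.17), *rig-6* (0.67), *spe-18* (1.60), *cgt-2* (1.03), *msp-74* (1.96), the BTB-domain gene *btb-9* (1.61), the receptor guanylyl cyclase gene *gcy-12* (0.69) and the insulin-like peptide gene *ins-37* (1.19). They were higher in F2 and lower in F3 for *otub-1* (-0.49), *pri-1* (-0.64), *epg-2* (-0.63), *hpo-11* (-0.57), *fbxc-51* (-0.76), *mcm-5* (-0.49), *nrde-1* (-0.38), *scc-3* (-0.33), the eggshell gene *perm-1* (-0.36), *rpt-4* (-0.29), *cld-1* (-1.55) and *pgm-1* (-0.47).

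In the first set *btb-9* was at 3.94, 3.84 and 3.63 CPM against 2.83, 1.97 and 2.29 CPM in F2 and at 4.41, 2.43 and 1.87 CPM against 5.05, 5.78 and 5.46 CPM in F3. In the second, *cld-1* was at 15.9, 7.69 and 15.7 CPM against 17.5, 23.4 and 26.4 CPM in F2 and at 7.61, 7.06 and 10.4 CPM against 5.76, 4.07 and 4.91 CPM in F3.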

How the results depend on the processing

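For the difference of differences, the 0 calls of the 12 libraries became 48 with no filter on low counts (47 higher, 1 lower), 577 with DESeq2 (372 and 205), 1598 with all 33 libraries (952 and 646), 1 with the ribosomal RNA share as a covariate, 91 with the 18 libraries of F2 and F3 (79 and 12) and 87 with 33 libraries and the cuticle score (44 and 43); the last pair was added after seeing the data. The count was 0 with DESeq2 size factors, voom, the cuticle score, ribosomal RNA genes left out or the replicate block. Opposite calls, genes called in the difference of differences and fitted with opposite signs in F2 and F3, needed no call in either generation. Choosing genes by a large difference favours opposite signs, which 57.5% of all genes tested had in the 12 libraries. Opposite calls numbered 0, and 48, 554, 1526 and 1 with no filter, DESeq2, 33 libraries and the ribosomal RNA share. The cause of these shifts was not tested.

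F2 against control gave 4 calls, and 34 with no filter, 762 with DESeq2, 1587 with 33 libraries, 1254 with voom, 1 with the replicate block, and 0 with either covariate. F3 against control gave 136, and 532, 923 and 35 with DESeq2, 33 libraries and voom. Exposed animals from F2 to F3 gave 441, and 1217, 2110, 1503, 772 and 766 with DESeq2, 33 libraries, voom, the cuticle score and the ribosomal RNA share. Controls gave 2662, and 5148, 1087 and 0 with 33 libraries, voom and the cuticle score. With recovery animals as reference, 75 became 211, 364, 1, 129, 38 and 200 with no filter, DESeq2, 33 libraries, voom, the cuticle score and the ribosomal RNA share.

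With each library left out, calls ranged from 0 to 445 for the difference of differences (the highest without F2 control replicate 3 and 0 without any other), 0 to 438 for opposite calls, 0 to 359 for F2 (highest without F2 control replicate 3), 22 to 370 for F3 (lowest without F3 exposed replicate 3, highest without F3 control replicate 2), 12 to 941 for exposed animals (without F3 exposed replicates 3 and 1), 389 to 2804 for the difference of differences in 33 libraries (without F2 control replicates 2 and 3), 436 to 3182 for controls (without F2 control replicate 2 and F3 exposed replicate 1) and 0 to 244 with recovery animals.

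Single genes' difference of differences turned sign with the cuticle score for *cep-1* (0.11), *R09E10.2* (-0.20) and *hsp-70* (-0.27), and with the ribosomal RNA share for *hsp-70* (-0.14). With libraries left out it ran from -0.16 to 0.52 for *egl-1* (without F3 control replicates 3 and 2) and from -0.33 to 0.56 for *hsp-70* (without F3 exposed replicate 1 and F3 control replicate 3). The replicate block ended the calls of *R09E10.2*, *hrg-4* and *pmp-1* in F2 and of *rig-6* in F3, at edgeR adjusted p of 0.1, 0.087, 0.1 and 0.061. Of the genes named, calls in 33 libraries were lost without F2 control replicate 2 for *dpy-8*, *wrt-1*, *epg-2*, *fbxc-51*, *ego-1*, *rde-8*, *xpf-1*, *smc-5*, *scc-3*, *htp-3*, *perm-1*, *hsp-4*, *hsp-60*, *hsp-90*, *tni-1* and *linc-142*, several of them also without another library, and were lost without F3 exposed replicate 1 for *ins-37* and without F2 exposed replicate 1 for *rpt-4*, while *lin-42*, *col-110*, *bli-2*, *spe-18*, *msp-36*, *pri-1*, *mcm-5*, *msh-2* and *otub-1* were called with each of the 12 left out. Depth limits genes near 1 CPM such as *egl-1* and *col-41*.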
